A study of Mus musculus with 68 samples.

Results

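Sirtuins and FoxO transcription factors, gene families often grouped as longevity genes, were followed in mesenchymal stromal cells (MSCs) cultured from mouse long bones. The set held 10 genes chosen by name, Sirt1 to Sirt7, Foxo1, Foxo3 and Foxo4, out of 27179 Entrez Gene identifiers in the count table. All 10 were found in the table and all 10 were kept by the filter on low counts.

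MSCs are adherent, fibroblast-like cells of the marrow and bone that can give rise to bone, cartilage and fat cells. The heterozygous mice (Het) were Ezh2fl/+:Prxx-1-Cre, so that 1 allele of Ezh2 was floxed, and the controls (WT) were Ezh2+/+:Prrx-1-Cre, spelled here as in the labels. Both genotypes therefore carried the Cre transgene, and its promoter is active in limb mesenchyme, so other cells in a culture need not be recombined. RNA was taken from WT cultures at 3 months (WT 3M, n = 4), Het cultures at 3 months (Het 3M, n = 3), WT cultures at 12 months (WT 12M, n = 4) and Het cultures at 12 months (Het 12M, n = 6). Months are the age given in the labels, taken here as that of the mice. The labels name each culture by a number (S1 to S17) and do not say whether each came from its own mouse, so p-values measure the spread between these cultures. Labelled male were WT 3M S5 and S12, Het 3M S8 and S10, WT 12M S2 and S13, and Het 12M S17. All other cultures were labelled female. In a bulk culture, fewer cells of a type and less RNA per cell cannot be told apart.

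Sirtuins are enzymes that use NAD+ to remove acetyl and other acyl groups from lysines of proteins. Sirt1, Sirt6 and Sirt7 are mainly nuclear, Sirt2 is mainly cytoplasmic, and Sirt3, Sirt4 and Sirt5 are mitochondrial. FoxO factors bind DNA in the nucleus when insulin and growth factor signalling is low. Under growth factors AKT kinases phosphorylate them and they are held in the cytoplasm, and Sirt1 is known to deacetylate FoxO proteins. Much of the control of both families therefore acts on protein, which RNA sequencing does not measure. In bone, FoxO factors are known for defence against oxidative stress in osteoblasts and their progenitors.

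The genes lie on different chromosomes for the most part. In RefSeq coordinates of GRCm38.p6, Sirt1 spans chr10:63319005-63339035, Sirt6 spans chr10:81621787-81627792 and Foxo3 spans chr10:42181845-42276695, all on the minus strand. Sirt2 (chr7:28766752-28788665, plus strand) and Sirt3 (chr7:140863663-140882309, minus strand) share chromosome 7. Sirt4 spans chr5:115478006-115490264 and Sirt7 spans chr11:120618371-120625014, both on the minus strand. Sirt5 (chr13:43365389-43395203), Foxo1 (chr3:52268337-52350109) and Foxo4 (chrX:101254261-101260873) are on the plus strand, and Foxo4 is the X-linked member.

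The start regions of the genes were compared by their letters, because a shared sequence would be the nearest common feature the RNA data could be set beside. RefSeq (GRCm38.p6) gave windows of 250 bases upstream of a start for 9 of the 10 genes, 11 windows in all, and none for Foxo4. A pair is shown, Foxo1 for its genotype differences described below and Sirt1 for its dense CpG content, each ending before the first annotated exon base, with every CpG dinucleotide in capitals.
Foxo1 (chr3:52268087-52268335, plus strand): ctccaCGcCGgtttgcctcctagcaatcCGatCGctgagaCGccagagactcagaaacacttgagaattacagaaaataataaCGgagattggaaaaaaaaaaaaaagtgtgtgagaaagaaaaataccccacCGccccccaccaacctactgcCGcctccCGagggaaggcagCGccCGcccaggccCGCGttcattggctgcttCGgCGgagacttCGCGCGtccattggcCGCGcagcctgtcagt
Sirt1 (chr10:63339051-63339285, minus strand): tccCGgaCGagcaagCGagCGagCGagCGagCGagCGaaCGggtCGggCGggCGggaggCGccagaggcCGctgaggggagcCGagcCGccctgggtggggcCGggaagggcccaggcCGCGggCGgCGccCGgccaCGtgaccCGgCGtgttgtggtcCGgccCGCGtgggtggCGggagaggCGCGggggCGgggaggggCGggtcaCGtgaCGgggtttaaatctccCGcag
The shown stretch of Foxo1 held 20 CpG dinucleotides in 249 bases and that of Sirt1 held 36 in 235. Over the whole 250 bases, Sirt1 had 39 CpG dinucleotides, more than 98.4% of the 32851 mouse promoter windows. The FoxO binding element GTAAACA, read on both strands, was in 0 of the 11 windows and in 3.17% of all windows. The GC box GGGCGG was in 8 of the 11 and in 32.7% of all, with at least 1 window each for Foxo1, Foxo3, Sirt1, Sirt2, Sirt3, Sirt5, Sirt6 and Sirt7. The member windows held 12 (Sirt7) to 39 (Sirt1) CpG dinucleotides, where the median of all windows was 6. The shares were not compared at like CpG content. Some windows lay in annotated exons, all 250 bases of a Sirt3 window in Psmd13 among them. The TATA box TATAAA was in 0 of the 11 and in 12.4% of all. GTAAACA and TATAAA share the letters TAAA, and a match or its lack describes these windows alone.

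Depth ran from 13687876 to 28597221 counts per culture, and the members were counted at between 81 reads (the lowest Foxo3 value) and 3203 reads (the highest Sirt2 value). Ezh2, the targeted gene and the enzyme of Polycomb repressive complex 2, was at 12.6 ± 2.32 CPM in WT 3M, 11.1 ± 2.29 in Het 3M, 19.8 ± 12.3 in WT 12M and 17.7 ± 5.52 in Het 12M (SD, n = 4, 3, 4 and 6). These ranges overlapped, and counts over the whole gene do not tell a floxed allele from an intact one. CPM relates a gene's counts to the total of its library, here scaled by the trimmed mean of M values (TMM). All 9 stromal markers, Prrx1, Pdgfra and Col1a1 among them, were read in every culture, with a summed level of 4474 CPM in Het 12M S15 and 7507 to 20777 CPM elsewhere. Het 12M S15 also read COX1, a gene of the mitochondrial genome, at 488 CPM, where every other library was at 4323 or above, and 6 of 7 endothelial markers at 0. Het 12M S9 had a summed level of 34958 CPM over 8 macrophage markers against at most 2346 elsewhere, and WT 12M S6 had 1129 CPM over 6 Schwann cell markers against at most 110 elsewhere. The 7 endothelial markers summed to 81.9 CPM in WT 3M S5 and to 43.2 or less in the others. The 8 markers of cycling cells summed to 598 CPM in WT 12M S6, 489 in WT 12M S13 and 348 or less elsewhere. Ezh2 was at 35.7 CPM in WT 12M S6 and 22.8 in S13, and at 7.64 in S2 and 13.1 in S7. What part cycling had in the Ezh2 level was not tested. Xist and 4 Y-linked genes ran against the labelled sex, or gave both signals, in the 4 libraries labelled WT 12M, so every comparison with WT 12M rests on libraries carrying that label.

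To compare genes, CPM were divided by the length of each gene's exons in kb. Sirt2, a cytoplasmic tubulin deacetylase, had the highest level, 17.3 ± 4.86 CPM per kb over the 17 cultures (SD). It stood above Foxo4, the next gene, in 17 of 17 cultures, by a mean log2 ratio of 1.40 ± 0.40 (SD). Foxo4 was at 6.59 ± 1.92 CPM per kb, Foxo1 at 5.35 ± 2.73, Sirt6 at 4.88 ± 1.26, Sirt7 at 4.79 ± 2.18, Sirt4 at 4.44 ± 1.43 and Foxo3 at 3.55 ± 1.08. Ranked by mean log2 level, each of these 6 genes and its neighbour in the order differed by less than the spread of their log2 ratio, as did Foxo3 and Sirt1. Sirt1, at 2.72 ± 0.80 CPM per kb, stood above Sirt3, at 1.59 ± 0.51, in 15 of 17 cultures, by a mean log2 ratio of 0.78 ± 0.66 (SD). Sirt5 was lowest, at 1.51 ± 0.62, and Sirt3 was above it in 9 of 17 cultures. The first and the last places were much the same in all groups. Sirt2 ranked first in each of the 4, and Sirt3 and Sirt5 took the last 2 places in each.

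**Figure D1:**
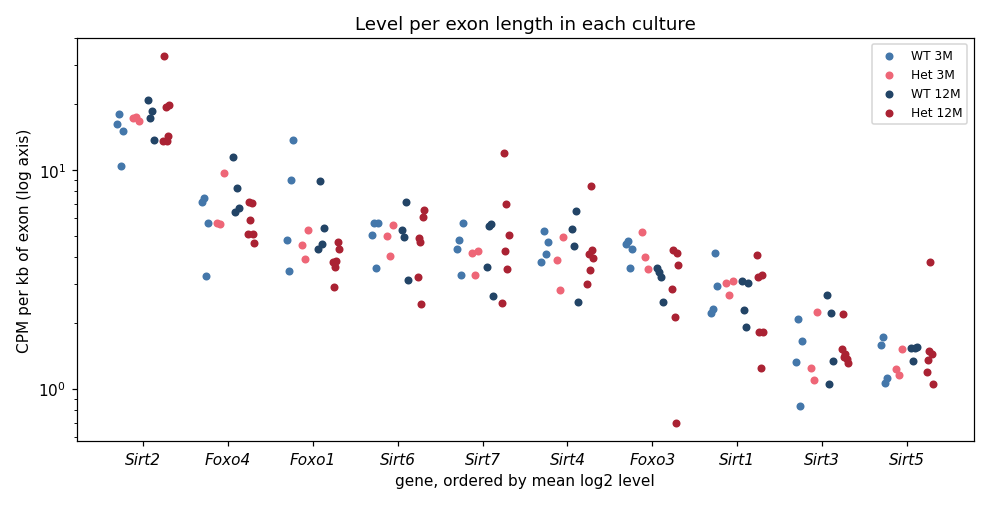
Level of each gene in CPM per kb of exon (vertical axis, log scale) in the 17 cultures, 1 point per culture, coloured by group, with genes ordered by mean log2 level. Sirt2 lies above Foxo4 in 17 of 17 cultures, and the single low Foxo3 point is Het 12M S15.

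Sirt2 alone made up 35.7% to 54.4% of the summed sirtuin level per kb in a culture. Its median share was 42.9% in WT 3M, 48.2% in Het 3M, 47.8% in WT 12M and 48.4% in Het 12M. The summed sirtuin level per kb was 27.4 to 43.4 CPM in 16 of the cultures and 60.7 CPM in Het 12M S9. Foxo6, the remaining FoxO gene of mice, was at 0 to 1.49 CPM and was not tested.

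No member passed the threshold in any of the 5 comparisons. The genotypes were compared at each age, the ages within each genotype, and a final comparison, the interaction, tested whether the genotype difference itself changed with age. In edgeR's quasi-likelihood test 0 of 10 members had an adjusted p under 0.05 in each, and so did 0 of 14897 genes, a background of 0% in all 5. At an unadjusted p under 0.05 in edgeR the members counted were again 0 in each comparison. Over all genes tested that share was 1.6% for Het against WT at 3 months, 8.36% at 12 months, 8.22% for age in WT, 3.28% for age in Het and 5.76% for the interaction. DESeq2 called 0 members in each, where it called 0%, 0.723%, 0.361%, 0.00682% and 0.239% of genes in the same order. Groups of cultures overlapped for every member in the 4 pairwise comparisons, while 6.78%, 1.32%, 8.1% and 1.91% of all genes had groups without overlap. With 10 genes, shares of this size leave fewer than 1 gene to be counted, so these counts do not set the members apart from other genes.

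How large a difference the data could still hold is given by the 95% confidence interval. At 3 months the interval of the Het to WT difference lay within a log2 difference of 1 on either side, a 2-fold change, for 8 of 10 members, against 43.5% of all genes. The same held for 7 of 10 at 12 months (background 48%), 6 of 10 for age in WT (39.1%), 7 of 10 for age in Het (43.8%) and 1 of 10 for the interaction (20.4%). The gene counted for the interaction was Sirt2, at -0.09 ± 0.38 (SE; interval -0.89 to 0.71). The median log2 difference of the 10 members was -0.03 at 3 months, -0.07 at 12 months, 0.06 for age in WT and -0.03 for age in Het. The medians of all genes were -0.02, 0.05, 0.04 and 0.07.

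**Figure D2:**
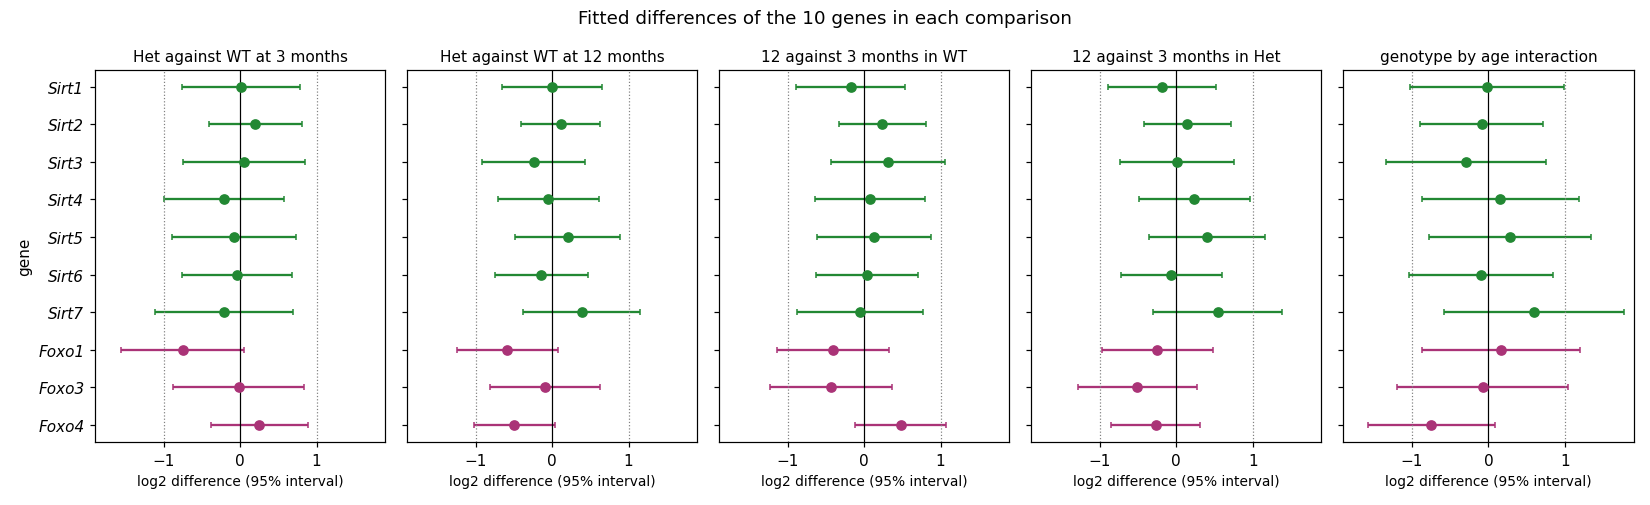
Fitted log2 difference with its 95% confidence interval (horizontal axis) of each gene in the 5 comparisons, sirtuins in green and FoxO genes in purple, with dotted lines at a log2 difference of 1 on either side. Every interval includes 0, and that of Foxo1 at 3 months reaches from -1.55 to 0.05.

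Among the FoxO genes, Foxo1, which in osteoblasts regulates antioxidant defence and is a main effector of insulin signalling, had the most negative genotype difference at both ages. It was at 41.4, 29.8, 77.5 and 119.0 CPM in WT 3M S3, S4, S5 and S12, and at 39.2, 34.0 and 46.0 CPM in Het 3M S8, S10 and S14. S5 and S12 lay above all Het 3M cultures, while S3 and S4 lay among or below them. At 12 months it was at 37.6, 77.0, 39.6 and 46.9 CPM in WT 12M S2, S6, S7 and S13, and in Het 12M its lowest, median and highest values were 25.3, 32.9 and 40.4 CPM. WT 12M S6 was again far above the others, and the groups overlapped. The fitted log2 difference of Foxo1 between Het and WT was -0.75 ± 0.38 (SE) at 3 months (edgeR p = 0.0641, adjusted p = 1.00) and -0.59 ± 0.31 at 12 months (edgeR p = 0.0763, adjusted p = 0.634). Its intervals were -1.55 to 0.05 and -1.25 to 0.07. Leaving out 1 culture at a time gave -0.98 (without WT 3M S4) to -0.30 (without WT 3M S12) at 3 months. At 12 months it gave -0.71 (without WT 12M S2) to -0.31 (without WT 12M S6). Without WT 12M S6, Het 12M S9 and Het 12M S15 together the difference at 12 months was -0.21. The 3 cultures highest in Foxo1 included S5 and S6, which carried endothelial and Schwann cell markers, and all 3 had over 100 CPM of Y-linked transcripts. The same transcripts summed to 226 CPM in Het 3M S8 and 228 in S10, where Foxo1 was below its level in WT 3M S3. With the Y-linked level as a covariate the differences were -0.65 and -0.42. What part these features had in the result was not tested beyond that. The age difference was -0.41 ± 0.35 in WT and -0.25 ± 0.34 in Het. It was 0.027 in WT without WT 3M S12, and -0.13 in Het without Het 3M S14.

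Foxo4, which shares the DNA-binding domain of the family and is known from studies of senescent cells, had the smallest p of any member at 12 months. Its values were 39.7, 22.3, 28.8 and 23.3 CPM in WT 12M S2, S6, S7 and S13. Het 12M ran from 16.2 through a median of 19.1 to 24.7 CPM. Only 2 of the 6 Het 12M cultures, S9 and S15, reached the range of WT 12M. The difference was -0.50 ± 0.25 (SE; interval -1.03 to 0.04; edgeR p = 0.0662, adjusted p = 0.627). At 3 months it was in the other direction, 0.25 ± 0.30, with WT 3M S3, S4, S5 and S12 at 24.7, 25.9, 11.4 and 19.9 CPM and Het 3M S8, S10 and S14 at 19.9, 19.7 and 33.6 CPM. Het 3M S14 alone lay above the WT 3M range, and WT 3M S5 alone lay below the Het 3M range. The age difference was 0.48 ± 0.28 in WT and -0.27 ± 0.28 in Het, and the interaction was -0.75 ± 0.39 (interval -1.58 to 0.08; edgeR p = 0.0747, adjusted p = 0.892). Xist was at 0.75 CPM or less in WT 3M S5 and S12, Het 3M S8 and S10, WT 12M S6 and Het 12M S17. In each group these cultures had the lowest values of Foxo4, which is X-linked. Every other culture read Xist at 81.6 CPM or more. What part this had in the differences was not tested beyond the covariates below. Single cultures carried much of these values. Without Het 3M S14 the difference at 3 months was -0.054, the age difference in Het 0.023 and the interaction -0.45. Without WT 12M S2 the difference at 12 months was -0.30 and the age difference in WT 0.27. Without WT 12M S6, Het 12M S9 and Het 12M S15 together, the difference at 12 months was -0.76 and the interaction -1.01. With the Y-linked covariate they were -0.66 (edgeR p = 0.00596, adjusted p = 0.370) and -0.96 (edgeR p = 0.00888, adjusted p = 0.596). The age difference in Het was then -0.51 (edgeR p = 0.0434). With the labelled sex as a term they were -0.65 (edgeR p = 0.021, adjusted p = 0.479) and -0.95 (edgeR p = 0.026, adjusted p = 0.704) for the difference at 12 months and the interaction. Xist and Y-linked genes ran against that label, or gave both signals, in WT 12M, so the term does not follow the sex signal there. Under none of these did Foxo4 pass the adjusted threshold in edgeR, and its smallest adjusted p under any setting was 0.305.

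Foxo3, a regulator of stress resistance and stem cell quiescence, had the most negative age differences of the set. It was at 34.5, 35.7, 26.9 and 32.7 CPM in WT 3M S3, S4, S5 and S12 and at 26.9, 25.9, 24.4 and 18.9 CPM in WT 12M S2, S6, S7 and S13. The groups met only where WT 3M S5 and WT 12M S2 lay at nearly the same value. Het 3M S8, S10 and S14 were at 39.2, 30.2 and 26.6 CPM, and Het 12M ran from 5.30 through a median of 24.7 to 32.4 CPM. The difference between 12 and 3 months was -0.43 ± 0.38 (SE; interval -1.23 to 0.36) in WT and -0.51 ± 0.37 (interval -1.29 to 0.27) in Het. The edgeR p values were 0.265 and 0.186, and neither passed after adjustment (adjusted p = 0.728 and 0.946). Without Het 12M S15, the lowest library, the difference in Het was -0.32. Between genotypes Foxo3 differed by -0.02 ± 0.40 at 3 months and by -0.10 ± 0.34 at 12 months. Leaving out 1 culture at a time gave -0.20 to 0.096 and -0.23 to 0.095 for these.

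**Figure D3:**
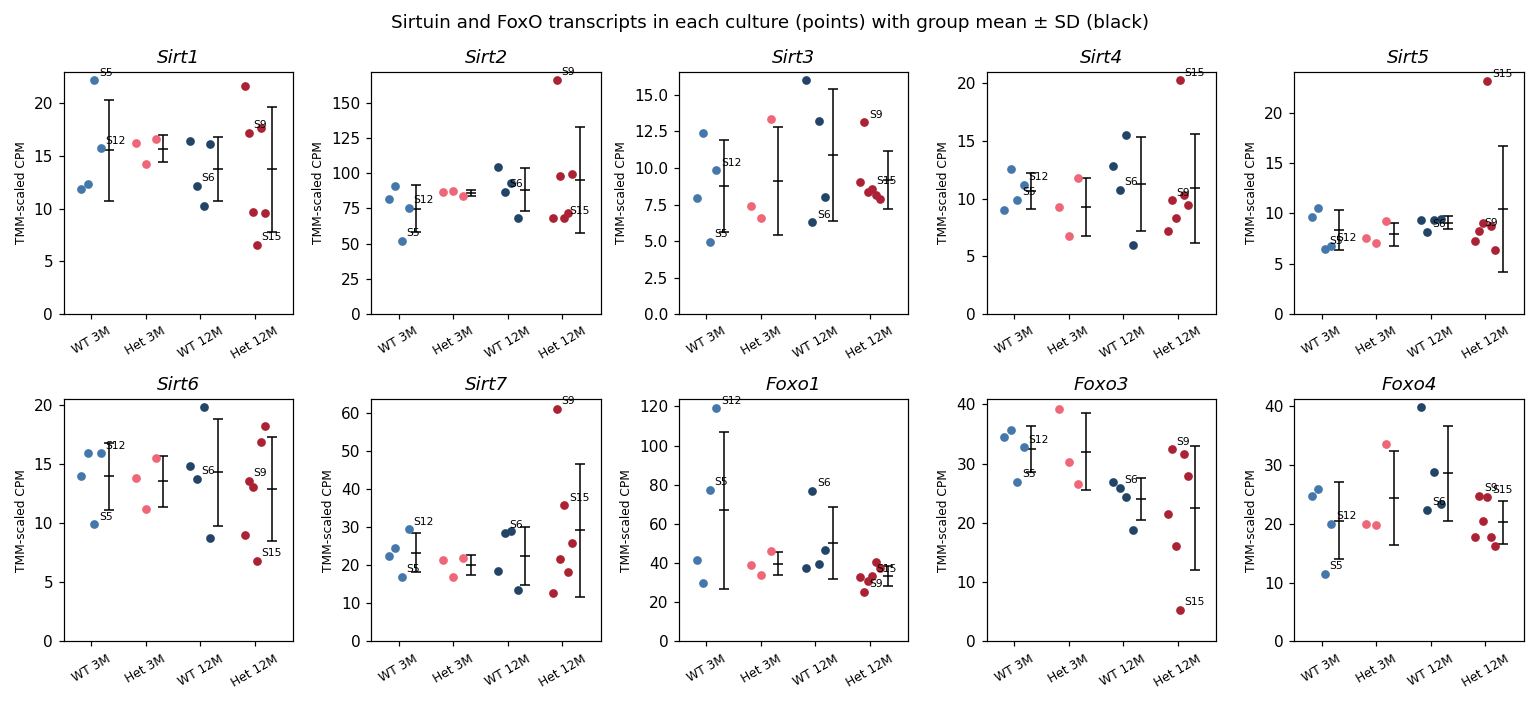
TMM-scaled CPM (vertical axis, from 0) of each gene in every culture of the 4 groups, 1 point per culture, with the group mean and SD in black and cultures that stand apart in markers or in Foxo1 labelled. Foxo1 reaches 119.0 CPM in WT 3M S12, and Foxo3 is at 5.30 CPM in Het 12M S15.

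Of the nuclear sirtuins, Sirt1, the deacetylase of histones, p53 and FoxO proteins, had nearly equal group means. It was at 11.8, 12.4, 22.2 and 15.7 CPM in WT 3M S3, S4, S5 and S12, at 16.2, 14.2 and 16.6 CPM in Het 3M S8, S10 and S14, and at 16.5, 12.2, 10.2 and 16.1 CPM in WT 12M S2, S6, S7 and S13. Het 12M spanned 6.61 to 21.6 CPM with a median of 13.5, wider than any other group and holding all but 1 of the others' values. The genotype difference was 0.01 ± 0.36 (SE; interval -0.76 to 0.78) at 3 months and 0.00 ± 0.31 (interval -0.65 to 0.65) at 12 months. Age differences were -0.17 ± 0.34 in WT and -0.19 ± 0.34 in Het. With 1 culture left out at a time they ran from -0.29 to 0.046 in WT, highest without WT 3M S5, and from -0.38 to -0.064 in Het, highest without Het 12M S15.

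Sirt6, a deacetylase of histone H3 that takes part in DNA repair and telomere maintenance, ranged over 9.90 to 15.96 CPM among WT 3M cultures and 11.2 to 15.5 CPM among Het 3M cultures. At 12 months WT cultures spanned 8.74 to 19.8 CPM and Het cultures 6.80 to 18.2 CPM. All 4 ranges overlapped. Its 4 pairwise differences lay between -0.14 and 0.03, each with an SE of 0.29 to 0.34. With 1 culture left out at a time they lay between -0.33, at 12 months without WT 12M S13, and 0.22, with age in WT without the same culture.

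Sirt7, a deacetylase linked to ribosomal RNA transcription, had the most positive differences of the set at 12 months and with age in Het. It was at 22.4, 24.5, 16.9 and 29.5 CPM in WT 3M S3, S4, S5 and S12, at 21.5, 17.1 and 21.8 CPM in Het 3M S8, S10 and S14, and at 18.5, 28.5, 29.0 and 13.6 CPM in WT 12M S2, S6, S7 and S13. Het 12M ran from 12.7 through a median of 23.8 to 61.2 CPM, with Het 12M S9 highest at 61.2 and S15 next at 35.8. The difference was 0.38 ± 0.36 (SE; interval -0.38 to 1.15) at 12 months and 0.54 ± 0.40 (interval -0.31 to 1.39) with age in Het. Without WT 12M S6, Het 12M S9 and Het 12M S15 these were -0.05 and -0.04. Without Het 12M S9 alone they were 0.03 and 0.17. The highest Sirt7 level thus came from the culture with the highest macrophage markers, and its part in the result was not tested further.

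Sirt2, the main cytoplasmic member, was at 81.5, 90.7, 52.1 and 75.4 CPM in WT 3M S3, S4, S5 and S12, and at 86.6, 87.5 and 83.8 CPM in Het 3M S8, S10 and S14. In WT 12M S2, S6, S7 and S13 it was at 104.7, 86.7, 93.0 and 68.5 CPM, and Het 12M ran from 68.0 through a median of 84.7 to 166.1 CPM. The Het 3M values lay inside the range of WT 3M, and the highest value was that of Het 12M S9. The 4 pairwise differences lay between 0.11 and 0.24, with an SE of 0.25 to 0.29. Without Het 12M S9, the culture high in macrophage markers, the difference was -0.12 between genotypes at 12 months and -0.095 with age in Het. Without WT 3M S5 it was 0.064 at 3 months and 0.094 with age in WT. The interval for Het against WT at 12 months, -0.41 to 0.63, was the narrowest among the members.

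The mitochondrial sirtuins had overlapping groups in every pairwise comparison. Sirt3, the main deacetylase of mitochondrial enzymes, was at 8.78 ± 3.15 CPM in WT 3M, 9.11 ± 3.71 in Het 3M, 10.9 ± 4.52 in WT 12M and 9.19 ± 1.97 in Het 12M (SD, n = 4, 3, 4 and 6). Sirt4, known as an ADP-ribosyltransferase of glutamate dehydrogenase, was at 10.7 ± 1.54, 9.26 ± 2.51, 11.3 ± 4.04 and 10.9 ± 4.73 CPM in the same order. Sirt5, which removes succinyl and malonyl groups, was at 8.34 ± 2.00, 7.91 ± 1.15, 9.08 ± 0.62 and 10.46 ± 6.27 CPM. The large SD of Sirt5 in Het 12M came from S15, at 23.1 CPM against 6.36 to 9.01 in the other 5 cultures. Of the 12 pairwise differences of these 3 genes, the lowest was -0.24 ± 0.32 (Sirt3 at 12 months) and the highest 0.40 ± 0.36 (Sirt5 with age in Het). The Sirt3 value was -0.0074 without WT 12M S2 and -0.45 without WT 12M S6. Without Het 12M S15 the Sirt5 difference with age in Het was -0.012.

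A pair of Het 12M cultures differed from the other 4 of their group in several members at once. In Het 12M S15, Foxo3 was 4.66-fold, Sirt6 2.20-fold and Sirt1 2.07-fold under the median of those 4 cultures. Sirt5 was 2.88-fold, Sirt4 2.28-fold and Sirt7 1.79-fold over it. Outside the range of the 4 lay 8 of the 10 members, and 72.8% of the 14897 genes tested. In Het 12M S9, Sirt7 was 3.07-fold, Sirt2 1.96-fold and Sirt3 1.59-fold over the same median, and 6 of the 10 members and 53.4% of all genes lay outside the range. Both counts were near the share of all genes. Place in the cell did not sort the members in S15, since nuclear Sirt7 lay above the range of the 4 cultures while nuclear Sirt1 and Sirt6 lay below it, and mitochondrial Sirt3 lay inside it.

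**Figure D4:**
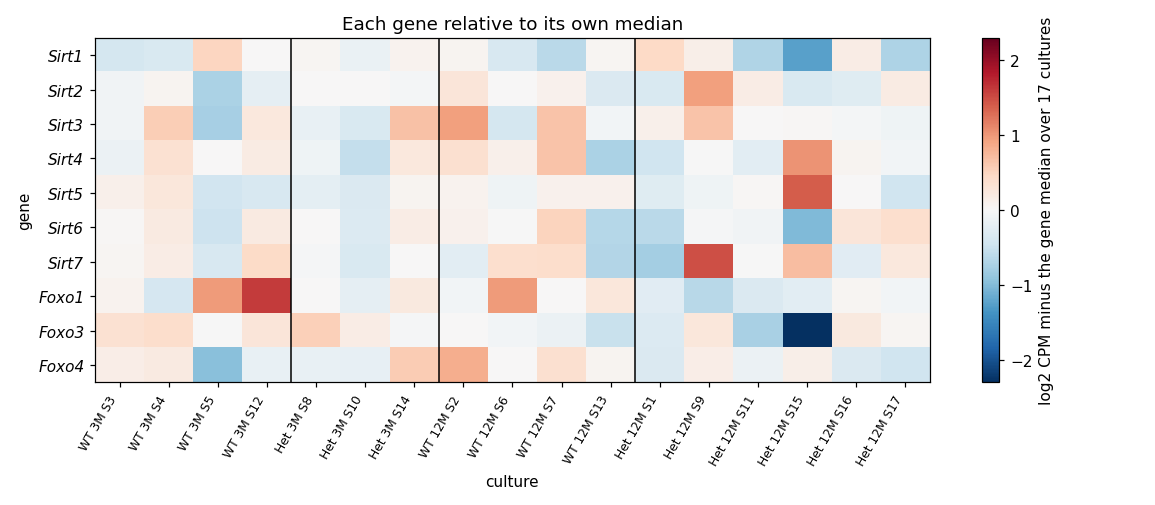
Log2 CPM of each gene minus its own median over 17 cultures (colour scale, red above and blue below), with genes in rows and cultures in columns, and black lines between the 4 groups. Het 12M S15 has the strongest blue cell, Foxo3, beside red cells for Sirt4 and Sirt5, and WT 3M S12 has the strongest red cell, Foxo1.

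Between cultures of 1 group, the SD of log2 CPM was smallest for Sirt2, at 0.37, and largest for Foxo3, at 0.64. The median over 14897 genes was 0.54, and Sirt7 (0.58) and Foxo3 were the members above it. Among genes within 0.5 of its own log2 level, Foxo3 varied more than 79.6%, Sirt7 more than 72.9%, Foxo1 more than 69.4% and Sirt2 more than 46.6%. For the other members this share ran from 33.6% (Sirt5) to 50.5% (Sirt1). The spread of Foxo3 includes Het 12M S15, at 5.30 CPM, where the next lowest culture was at 16.2 CPM.

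Across the 17 cultures, which share groups, cell makeup and the 3 libraries with markers of other cells or low COX1, some members followed each other. Sirt3 and Foxo4 had a Pearson r of 0.82, and 0.88 over the 14 cultures left without those 3. Sirt6 and Sirt7 had 0.24 over 17 and 0.86 over 14, and Sirt5 and Foxo3 had -0.77 over 17 and -0.12 over 14. The last value thus rests on the libraries that stand apart. Foxo1 and Foxo3, of 1 family, had 0.17 over 17 and 0.18 over 14. The genes whose log2 level was most like a member's over 17 cultures were Ctdspl2 (r = 0.94), Spin4 and Stag1 for Sirt1. They were Abhd12 (0.94), Aldh2 and Efhd2 for Sirt2, and Arrdc1 (0.91), Tcirg1 and Pi4k2a for Sirt7. For Sirt3 they were Cyp4f13 (0.86), Acad10 and Elmod3, for Sirt4 Fam193b (0.93), Rgl3 and Lin7b, for Sirt5 Abcd4 (0.92), Ly6e and Il17rc, and for Sirt6 Inpp5e (0.90), Kifc2 and Bcl9l. For Foxo1 they were Cep97 (0.86), Aff1 and Traf3, and for Foxo3 Slc23a2 (0.94), Wasf2 and Nisch. Elmod3 was listed for Foxo4 as well, after Jmjd8 and Zfp316. These are descriptions of 17 points, and several r were lower over the 14 cultures without the libraries that stand apart. Without them r was 0.73 for Tcirg1 and 0.76 for Arrdc1 with Sirt7, 0.75 for Abcd4 and Ly6e with Sirt5, and 0.75 for Wasf2 with Foxo3.

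The genes around the 2 families were taken from 7 lists with 151 symbols, of which 150 were in the table and 137 were tested. In edgeR 0 of the 137 had an adjusted p under 0.05 in each of the 5 comparisons. At an unadjusted p under 0.05 there were 1, 9, 9, 3 and 6, or 0.73%, 6.57%, 6.57%, 2.19% and 4.38%, each below the background given above. DESeq2 called 1 of them, Bst1 at 12 months between genotypes, and none in the other comparisons.

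Insulin, PI3K and AKT signalling holds FoxO factors out of the nucleus, though not every gene of this list of 20 promotes it. Between genotypes at 12 months 3 of the 20 had an unadjusted edgeR p under 0.05, or 15% against 8.36% of all genes. All 3 had lower fitted levels in Het. The fitted log2 difference of the kinase Akt2 was -0.41 ± 0.17 (SE), that of the kinase Mtor -0.39 ± 0.17 and that of the receptor adaptor Irs2 -1.26 ± 0.57. Irs2 was at -0.42 without WT 12M S6, and Mtor at -0.21 without the 3 libraries that stand apart. The insulin receptor Insr was at -0.68 ± 0.24 with age in WT, and at -0.41 without WT 3M S5. Mtor was at -0.41 ± 0.18 with age in Het. The median of the list was -0.20 between genotypes at 3 months, -0.10 at 12 months, -0.18 for age in WT and -0.15 for age in Het. Fitted above 0 were 3, 9, 5 and 6 of the 20, against 47.5%, 55.7%, 53.8% and 57.7% of all genes.

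Among 18 tested FoxO cofactors and modifiers, the ubiquitin ligase Mdm2 had the smallest p of any listed gene. It was at 297.1, 182.2, 385.2 and 496.0 CPM in WT 3M S3, S4, S5 and S12 and at 132.1, 174.7, 129.2 and 178.1 CPM in WT 12M S2, S6, S7 and S13. The groups did not overlap, as was so for 8.1% of all genes, and their nearest cultures were at 182.2 and 178.1 CPM. The difference was -1.15 ± 0.31 (SE; edgeR p = 0.00175, adjusted p = 0.481). The 14-3-3 gene Ywhah was at 0.73 ± 0.33 with age in Het, and at 0.21 without the 3 libraries. The median of the list was -0.07 at 3 months, 0.10 at 12 months, -0.19 for age in WT, 0.11 for age in Het and 0.28 for the interaction. Fitted above 0 were 4, 15, 6, 11 and 16 of the 18, against 47.5%, 55.7%, 53.8%, 57.7% and 56.3% of all genes. The values at 12 months, for age in WT and for the interaction share the WT 12M libraries.

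Of 30 tested FoxO target genes, the cyclin Ccng2 had an unadjusted p under 0.05 in both comparisons with WT 12M. It was at 44.2, 45.4, 44.8 and 32.1 CPM in WT 3M S3, S4, S5 and S12 and at 28.4, 33.4, 27.4 and 26.5 CPM in WT 12M S2, S6, S7 and S13. Het 12M ran from 35.2 to 53.9 CPM, above every WT 12M culture, in a comparison where 1.32% of all genes had groups without overlap. The difference was 0.58 ± 0.17 (SE; edgeR p = 0.00354, adjusted p = 0.307) between genotypes at 12 months and -0.53 ± 0.18 (edgeR p = 0.0111, adjusted p = 0.557) with age in WT. These share the WT 12M libraries, so they are not independent of each other. The interaction was 0.76 ± 0.26 (edgeR adjusted p = 0.683). Pdk4, a kinase that limits pyruvate oxidation, and the autophagy kinase Ulk1 were at -1.39 ± 0.61 and -0.51 ± 0.23 with age in WT. The targets as a list had a median of 0.24 at 12 months between genotypes, with 21 of 30 fitted above 0, where the median of all genes was 0.05 and 55.7% were above 0. For age in WT, which shares the WT 12M libraries, the median was -0.15, with 8 of 30 above 0 (all genes 0.04 and 53.8%). It was -0.01 with 15 of 30 above 0 at 3 months (all genes -0.02 and 47.5%). For age in Het it was 0.11 with 17 of 30 above 0 (all genes 0.07 and 57.7%).

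NAD+ is the cosubstrate of sirtuins, and 21 genes of its metabolism were tested. Bst1, an ectoenzyme that consumes NAD+, had a fitted log2 difference of 3.09 ± 0.99 (SE) at 12 months between genotypes (edgeR p = 0.00649, adjusted p = 0.383; DESeq2 adjusted p = 0.0299). It was at 69.3 CPM in Het 12M S9 and 81.4 in S15, at 2.76 to 5.82 in the other 4 Het 12M cultures and at 1.63 to 6.83 in WT 12M. Without the 3 libraries that stand apart the difference was 0.21. With age in Het it was 2.40 ± 1.08, and -0.27 without them. Nampt, the rate-limiting enzyme of NAD+ salvage, was at 0.87 ± 0.35 between genotypes at 12 months, and at 0.24 without those libraries. The kinase Nmrk1, which starts salvage from nicotinamide riboside, was at 0.63 ± 0.26 in the same comparison, and at 0.61 without them.

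Among known partners and substrates of sirtuins, the mitochondrial isocitrate dehydrogenase Idh2, a Sirt3 substrate, had a fitted log2 difference of 0.99 ± 0.32 (SE) with age in WT (edgeR adjusted p = 0.552). It was at 66.4, 85.5, 62.4 and 35.0 CPM in WT 3M S3, S4, S5 and S12 and at 155.1, 112.8, 143.6 and 83.8 CPM in WT 12M S2, S6, S7 and S13, with 3 of 4 WT 12M cultures above every WT 3M culture. The histone methyltransferase Suv39h1, a Sirt1 substrate, was at 0.83 ± 0.25 and the DNA repair gene Xrcc6 at 0.62 ± 0.23 in the same comparison. In WT 12M S6 and S13, the cultures highest in cycling markers, Suv39h1 was at 31.6 and 28.3 CPM, against 16.4 and 15.9 in S2 and S7. Xrcc6 was at 37.1 and 45.6 CPM there, against 29.6 and 26.0. Suv39h1 was at 0.63 without WT 12M S6, and Xrcc6 at 0.46 without WT 12M S13. What part cycling had was not tested. Pck2 was at 0.58 ± 0.21 and Polr1a, the large subunit of RNA polymerase I, at -0.46 ± 0.21 between genotypes at 12 months. Polr1a was at -0.17 without the 3 libraries. Of the 11 histone deacetylases of the zinc-dependent classes, Hdac1 was at 0.60 ± 0.22 between genotypes at 3 months (edgeR p = 0.0136, adjusted p = 1.00), and Hdac3 at 0.43 ± 0.19 with age in WT, or 0.26 without WT 12M S7. Beside Ccng2, the interaction had an unadjusted p under 0.05 in edgeR for Idh2 (-0.999 ± 0.446), Akt2 (-0.59 ± 0.26), Mdm2 (0.96 ± 0.43), Ulk1 (0.70 ± 0.32) and Myc (1.00 ± 0.47), with adjusted p of 0.837 to 0.861.

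**Figure D5:**
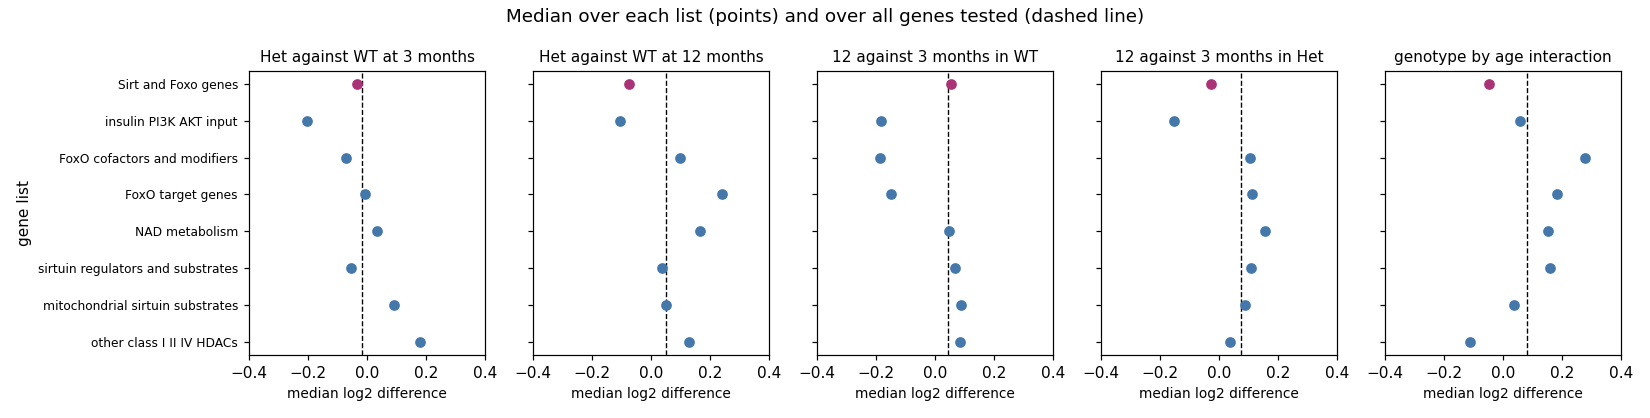
Median log2 difference (horizontal axis) of the 10 sirtuin and FoxO genes (purple) and of each of 7 gene lists (blue) in the 5 comparisons, with the median of all genes tested as a dashed line. The list medians lie within 0.3 of 0, and the largest is that of the FoxO cofactors for the interaction, 0.28.

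Some exon bases of the members are shared with other genes, and the library kit does not mark strand. In GENCODE M21 on the same assembly, 418 of the 5973 exon bases of Sirt3 also lie in Ric8a and 342 in Psmd13, both on the other strand. Of 8665 exon bases of Foxo1, 674 (7.78%) lie in the antisense gene Gm20402, and 124 bases of Sirt7 lie in Mafg on the same strand. How the counting treated such reads is not given in the sources used here.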

How the data were processed

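RNA from 17 MSC cultures was sequenced after TruSeq RNA v2 library preparation, per the labels' protocols. The deposited values are unscaled counts for each Entrez Gene identifier, made by the authors with Subread and featureCounts on mm10, per the submitters' processing notes. Versions, annotation and handling of multi-mapped reads are not given in the sources used here. The 4 technical replicates of each culture differed by counting error or slightly more, with a chi-square per degree of freedom of 1.00 to 1.09. Between cultures it was at least 17.4, lowest for Het 3M S8 and S10. The replicates of each culture were summed. Symbols came from RefSeq GRCm38.p6 for 25275 identifiers, and the other 1904 held 0.573% of counts.

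Counts were fitted with edgeR 4.0.16 (R 4.3.3; TMM, filterByExpr, 14897 genes, 1 term per group, 17 cultures) and the 2-sided quasi-likelihood test. Adjustment was by Benjamini and Hochberg over all genes tested, with a threshold of 0.05. The common biological coefficient of variation was 0.512. Depth was 13687876 to 28597221 counts. Log2 differences are the first group minus the second, with SE. Levels per kb used GENCODE M21 exon lengths. The fit was run on simulated counts with less spread than these data and with changes larger than any fitted for the members. That run therefore does not show how often differences of the size seen here would be missed. Alternatives were DESeq2 1.42.0, RLE scaling, no filter, a labelled sex term, a Y-linked covariate, the compared groups alone, leaving out 3 libraries, and leaving out each culture. Tested genes of the lists are named where they had an unadjusted p under 0.05 in edgeR in some comparison. They were thus picked by their values in these same data. For each member the 3 genes with the highest Pearson r of log2 CPM (prior count 2; predicted genes left out) are named. The members and lists were chosen with earlier results of these data known.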

Additional observations from a re-analysis of the deposited data

Results flagged for a closer look

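In groups of 4 to 6 cultures, the gap between an extreme culture and its nearest neighbour was compared with Dixon's 95% limit. Of 30 gene and group combinations, 5 were past it. Chance gives about 1 in 20, and over all genes tested 13.8% of the same combinations were past the limit, and 23.8% in Het 12M alone, so nothing particular to the members is read from their count. Het 12M S9 was high in Sirt2, at 166.1 CPM against at most 99.2 in the other Het 12M cultures, and in Sirt3, at 13.1 CPM against at most 9.07. Het 12M S15 was high in Sirt4, at 20.3 CPM against at most 10.3, and in Sirt5, at 23.1 CPM against at most 9.01. WT 12M S6 was low in Sirt5, at 8.16 CPM, with the next culture at 9.36, in a group whose other 3 values lay close together. These are the same 3 cultures that stood apart in macrophage markers (S9), COX1 (S15) and Schwann cell markers (S6), and the part of those features in the 5 values was not tested.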

How the results depend on the processing

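No member passed the adjusted threshold under any of 24 settings, where the smallest adjusted p was 0.305. Under some of these settings Foxo1, Foxo3 and Foxo4 had an unadjusted edgeR p under 0.05. Of 1190 recomputed member differences 1091 kept their sign, 92 changed sign with both values within 1 SE of 0, and 7 changed sign beyond that. Without WT 12M S6, Het 12M S9 and Het 12M S15, the difference between genotypes at 12 months was -0.25 for Sirt5 and -0.051 for Sirt7, and that with age in Het was -0.017 for Sirt5 and -0.040 for Sirt7. Leaving out each culture in turn gave -0.21 to 0.30 for Sirt5 between genotypes at 12 months (lowest without Het 12M S15), -0.012 to 0.52 for Sirt5 with age in Het, and -0.69 to 0.027 for Foxo1 with age in WT (highest without WT 3M S12). DESeq2 called 1 pathway gene between genotypes at 12 months, Bst1. The cause of these changes was not tested. Other scalings and covariates moved the median of all genes by less than 0.02 (log2). No paired analysis was possible because the numbers shared across groups mark technical replicates of 1 culture, and the culture numbers themselves are not shared between groups. At 81 to 3203 reads per member and culture, the spread between cultures limits the precision more than counting does.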
